A study of Mus musculus with 8 samples.

Results

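The 77 genes described here encode mitochondrial ribosomal proteins. They were taken by name, as every row of the count table whose identifier carries a mouse symbol beginning with Mrpl or Mrps, followed by a number and at most 1 letter. They are 77 of 37991 gene identifiers, 48 of them named for the large subunit (Mrpl) and 29 for the small subunit (Mrps). The name table holds 78 such symbols, and Mrpl33 was not analysed here.

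RNA came from bone marrow of C57BL/6J mice, from Flt3- LSK cells, a population rich in blood stem cells and the earliest progenitors, with 24000 cells sorted per sample. The WT group is given as Runx1f/f, that is, with floxed Runx1, and the Mut group as Runx1 deficient. The labels name no Cre line, no age and no deleted part of the gene, and they do not say whether samples of 1 group are separate animals. If they are not, the spread behind every p-value here is technical only. Each sample has a library from polyA-selected RNA (mRNA library) and one from total RNA, which gives 2 libraries per genotype and kind and 8 in all.

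Mitochondria carry their own ribosomes, which translate the few proteins encoded by mitochondrial DNA, all of them parts of the respiratory chain and ATP synthase. The ribosomal RNAs of these particles, mt-Rnr1 and mt-Rnr2, are transcribed inside the organelle, whereas their proteins are encoded in the nucleus, made in the cytoplasm and imported. In haematopoietic stem cells, which are known for low reliance on respiration at rest, mitochondrial content and activity increase as the cells begin to divide and differentiate.

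Gene counts per library were 35096252 to 37924699 in the mRNA libraries and 967694 to 1218437 in the total RNA libraries, where ribosomal RNA took 93.3 to 94.5% of all counts. Runx1 itself went against the label. It stood at 200 and 208 CPM, counts scaled to libraries of 1000000 in the WT mRNA libraries, against 749 and 941 CPM in the Mut-labelled ones (log2 fold change 2.05, edgeR adjusted p = 0.00753). No source used here says which exons were removed, so these counts do not check the deletion, and the groups are called WT and Mut-labelled throughout. Of the markers of the gate, Kit was at 884 to 1100 CPM in the mRNA libraries and Cd34 at 594 to 725 CPM. Ly6a, which encodes Sca-1, was at 23.7 to 38.6 CPM. Slamf1 was at 11.2 and 14.6 CPM in WT, against 21.3 and 22.7 CPM in Mut-labelled mRNA libraries (log2 fold change 0.77, 95% interval 0.22 to 1.33). Flt3, which the gate should leave out, was at 117 and 155 CPM in WT, against 57.3 and 87.6 CPM (-0.91, 95% interval -1.52 to -0.30). Neither difference was called. Markers of more mature cells also differed between the groups. The summed level of 8 neutrophil markers was 36.3 and 43.2 CPM in WT, against 480 and 127 CPM in Mut-labelled mRNA libraries. That of 7 megakaryocyte markers was 478 and 411 against 1791 and 1664 CPM, and that of 10 erythroid markers 1266 and 993 against 385 and 262 CPM, with no marker of these 3 lists at 0 in all 4 libraries. Most of the megakaryocyte sum was Itga2b (337 and 318 CPM in WT, against 1345 and 1344 CPM). Itga2b, Gp5 and Treml1 were called higher in Mut-labelled libraries, whereas Pf4 (log2 -1.20) and Gp1bb (-1.05) were not called and had the opposite sign. Most of the erythroid sum was Car2 (763 and 642 CPM in WT, against 266 and 205 CPM). Klf1, Car1, Car2 and Ermap were called lower. The other erythroid markers were not called. Among them, Hba-a1, Hba-a2 and Hbb-bs overlapped between the groups, and Hbb-bt had the opposite sign (0.61). The part of these markers in the results below was not tested. In bulk samples such as these, fewer cells of a type and less RNA per cell cannot be told apart.

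All 77 genes were detected. In the mRNA libraries the highest level per kilobase of exon was that of Mrpl34 (80.8 CPM per kb), a large subunit protein, ahead of Mrpl52 (70.1), Mrpl24 (69.0), Mrpl14 (65.9) and Mrpl2 (64.7). Mrpl2 lies next to the peptidyl transferase centre, where peptide bonds are made, and Mrpl24 near the exit of the peptide tunnel. The median was 24.5 CPM per kb for the 48 Mrpl genes and 17.9 CPM per kb for the 29 Mrps genes. Most genes lay within 1 order of magnitude of each other, and few stood apart at the low end.

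The lowest was Mrpl53, with 21 and 14 counts in WT, against 0 and 27 counts in the Mut-labelled pair (replicate 1 first, as in all such values). Its annotated exons are wholly covered by another gene model on the same strand (Gm42688), so its reads may have been lost or shared, and its value is uncertain. Mrpl48, a protein of the central protuberance of the large subunit, followed with 2.21 CPM per kb. Mrps36, now known as a subunit of alpha-ketoglutarate dehydrogenase more than as a ribosomal protein, had 2.57 CPM per kb, and Mrpl23, at the tunnel exit, had 3.83 CPM per kb. The counting of reads from genes that overlap is not given, and several other values share that limit. By the GENCODE M21 annotation, exons of Mrpl24 overlap those of Rrnad1 over 38.2% of their length, those of Mrpl19 overlap Gcfc2 over 39.2%, those of Mrps25 overlap Nr2c2 over 58.2% and those of Mrps18b overlap Gm16279 over 59.1%, in each case on the other strand.

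**Figure D1:**
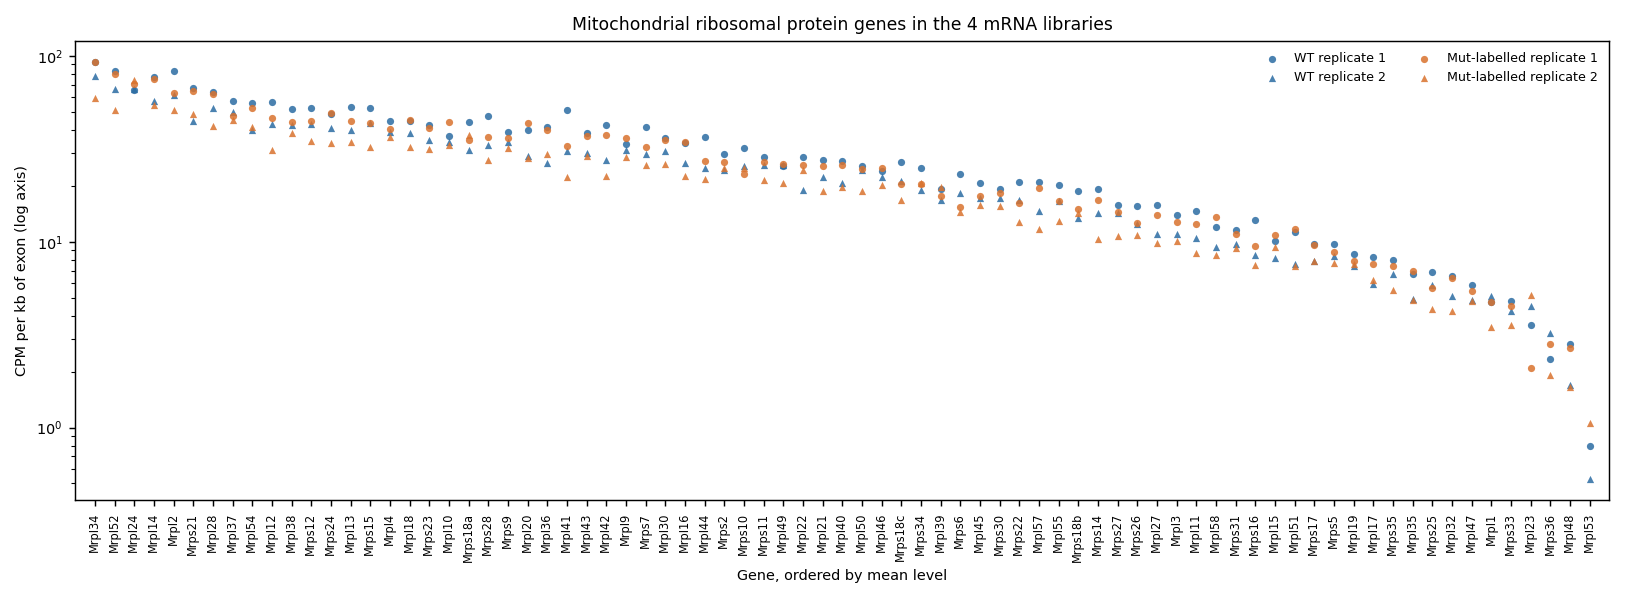
Level of each of the 77 genes in the 4 mRNA libraries, in CPM per kilobase of exon on a log axis, ordered by mean level; circles are replicate 1 and triangles replicate 2, blue is WT and orange Mut-labelled. A value of 0 (Mrpl53 in Mut-labelled replicate 1) is not drawn. For most genes the circles lie above the triangles of the same colour, and the genotypes are not set apart.

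Most of the 77 genes shared 1 order across the mRNA libraries, and that order followed the replicate number at least as much as the genotype. Their summed level in the mRNA libraries was 3349 CPM in WT replicate 1 and 2704 CPM in WT replicate 2, against 3067 and 2442 CPM in the Mut-labelled pair. The groups overlap, because Mut-labelled replicate 1 exceeded WT replicate 2. Replicate 1 was 1.24 times replicate 2 in WT and 1.26 times in the Mut-labelled group, whereas the Mut-labelled mean was 0.910 of the WT mean. Replicate 1 was the higher for 72 of 77 genes in WT (median log2 difference 0.32) and for 70 of 77 in the Mut-labelled group (0.35), against 49.9% and 49.4% of all genes tested. WT replicate 1 was the highest of the 4 libraries for 58 genes and Mut-labelled replicate 2 the lowest for 60. The cytoplasmic ribosomal protein genes had nearly the same ratios of replicate 1 to replicate 2, 1.27 in WT and 1.26 in the Mut-labelled group, with sums of 19500 and 15390 CPM in WT, against 19190 and 15270 CPM in Mut-labelled libraries.

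In the total RNA libraries the summed level of the 77 genes was 2355 and 2167 CPM in WT, against 2156 and 1938 CPM in the Mut-labelled group. Here the groups do not overlap, by a narrow margin, and the Mut-labelled mean was 0.905 of the WT mean. Replicate 1 was 1.09 times replicate 2 in WT and 1.11 times in the Mut-labelled group. Replicate 1 was higher for 44 and 43 of the 70 genes with enough counts to be tested. These sums rest on 2418, 2159, 2001 and 2312 reads, against 89282 to 127087 reads in the mRNA libraries. Spike-in RNA (ERCC) also differed between replicates of a group. In the mRNA libraries it was 6508 and 3130 per 1000000 gene counts in WT and 8911 and 3811 in the Mut-labelled group, so replicate 1 was again the higher. Total RNA had 4138 and 5639 in WT, against 7720 and 13640 in the Mut-labelled group, with replicate 2 the higher. Its part in the difference between replicates was not tested.

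**Figure D2:**
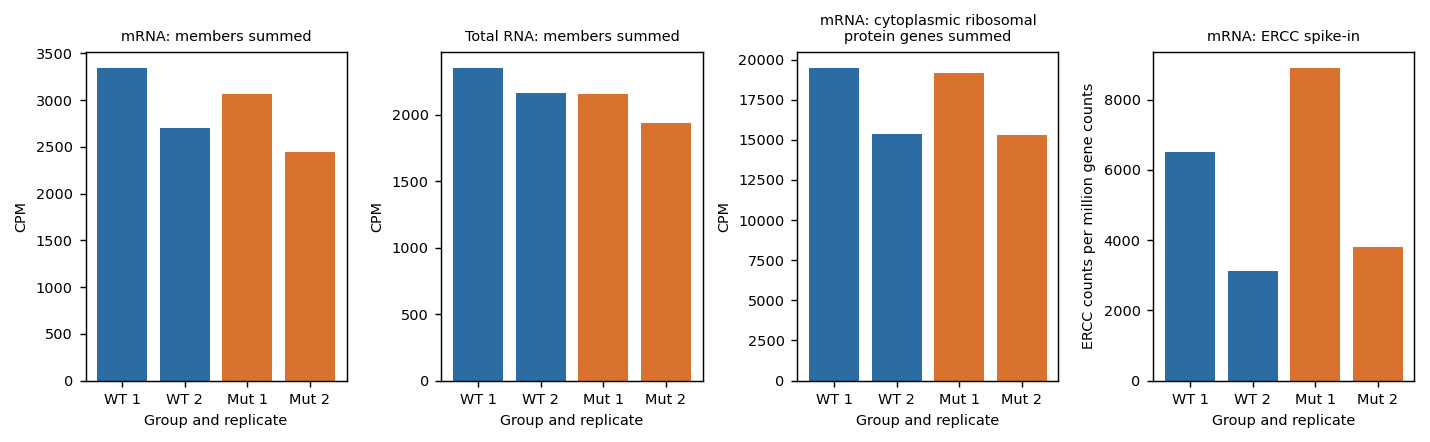
Bars from 0 give, for each WT (blue) and Mut-labelled (orange) library, the summed level in CPM of the 77 genes in mRNA and in total RNA, that of the cytoplasmic ribosomal protein genes in mRNA, and ERCC spike-in counts per 1000000 gene counts in mRNA. In the mRNA panels replicate 1 is above replicate 2 in both groups, whereas in total RNA the 4 sums range from 1938 to 2355 CPM.

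The 77 genes are short, with a median exon length of 1398 bases, against 2881 bases over all genes tested with a known length. Among other genes the median log2 ratio of replicate 1 to replicate 2 in the mRNA libraries went from 0.16 (WT) and 0.20 (Mut-labelled) for the 2221 genes under 1000 bases to -0.17 and -0.19 for the 3383 genes of 5000 bases or more. The mitochondrial ribosomal protein genes were above other genes of like length in every length class. The 21 members under 1000 bases had medians of 0.40 and 0.42, the 12 members of 3000 to 4999 bases had 0.34 and 0.48, and the 6 members of 5000 bases or more had 0.31 and 0.29. Gene by gene the relation to log2 length was weak, at r = -0.042 (WT) and -0.041 (Mut-labelled) over 16293 genes and at -0.066 and 0.13 over the 77 members. Length classes hold few members, and these values are descriptions without a test.

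**Figure D3:**
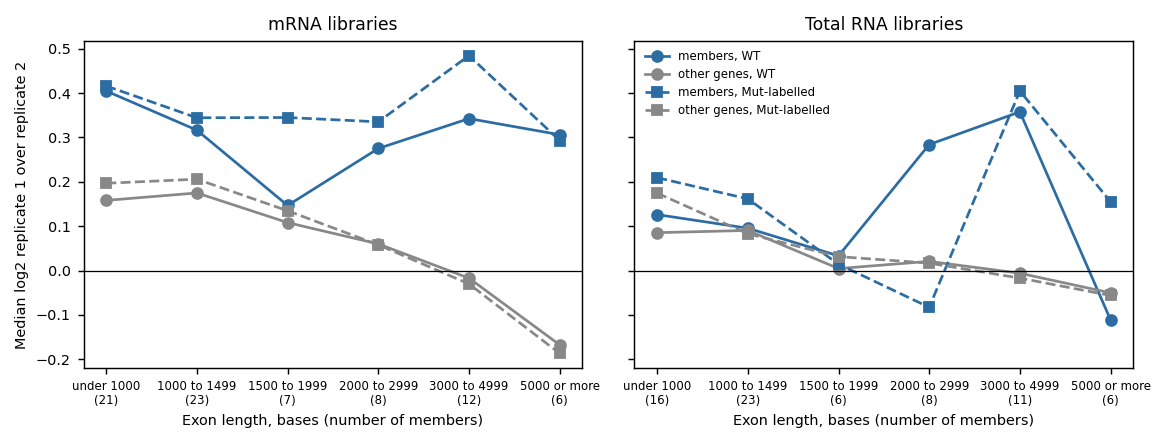
Median log2 ratio of replicate 1 to replicate 2 by exon length class, for the members (blue, number of members in brackets) and for other genes (grey), with circles and solid lines for WT and squares and dashed lines for the Mut-labelled group. In the mRNA libraries other genes go from 0.16 and 0.20 at the short end to -0.17 and -0.19 at the long end, and members stay above them; in total RNA the members' medians have no steady order.

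The first comparison asked whether mitochondrial ribosomal protein genes differ in mRNA level between WT and Runx1-deficient stem and progenitor cells. None of the 77 genes was called in the mRNA libraries by edgeR's quasi-likelihood test at an adjusted p under 0.05. Over all genes 624 of 17128 (3.64%) were called. No member had an unadjusted p under 0.05 either, against 15.7% of all genes. DESeq2 called 0 members, against 1615 of 17128 genes (9.43%). Of the 77 log2 fold changes, 66 were negative and 11 positive, with a median of -0.14 against -0.01 over all genes, of which 51.4% were negative. They ranged from -0.57 (Mrpl41) to 0.15 (Mrpl15). Scaled to the spike-ins, which shifted the median of all genes to -0.38, all 77 were negative (median -0.53), Mrpl15 and Mrpl24 included.

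Leaving out 1 library also leaves the replicate numbers uneven between the groups. Without WT replicate 1 the median was 0.0023 and 37 of 77 were negative, and without Mut-labelled replicate 2 it was 0.015 with 35 negative. Without WT replicate 2 it was -0.25, and without Mut-labelled replicate 1 it was -0.34. The groups did not overlap, with Mut-labelled lower, for 9 genes, against 23.1% of all genes, and with Mut-labelled higher for 1 gene, Mrpl24, against 21.4% of all genes. The 95% interval of the log2 fold change lay within 1 either way for 70 of 77 genes and within 0.5 either way for 9, so the intervals of most genes leave out differences beyond 1 on the log2 scale but not smaller ones.

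Among large subunit proteins, 38 of 48 fold changes were negative (median -0.12). Mrpl41, a mitochondria-specific protein, had 39.6 and 23.8 CPM in WT, against 25.5 and 17.3 CPM in Mut-labelled mRNA libraries. The groups overlapped, and its fold change (log2 -0.57, SE 0.32, edgeR adjusted p = 0.50) came with WT replicates farther apart than the group means. Mrpl24 had 102 and 103 CPM in WT, against 110 and 115 CPM in the Mut-labelled group (log2 fold change 0.14, SE 0.12, edgeR adjusted p = 0.695). It was the most abundant member by CPM and among the few that did not follow the replicate number. Mrpl9, the next by CPM, had 87.5, 81.1, 93.3 and 74.2 CPM (-0.01, SE 0.15). Mrpl15, a conserved large subunit protein, had 53.2, 43.2, 57.5 and 49.4 CPM in the same order.

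The L7/L12 stalk is the arm of the large subunit that recruits translation factors. Mrpl12, its repeated tip protein, had 74.0 and 56.9 CPM in WT, against 61.3 and 41.2 CPM in Mut-labelled mRNA libraries, with a log2 fold change of -0.35 (SE 0.23). Mrpl10, which anchors the stalk, had 63.4, 59.1, 75.2 and 56.7 CPM (0.11, SE 0.17), and Mrpl11, at its base, 44.8, 32.3, 38.2 and 26.7 CPM (-0.25, SE 0.25). Replicate 1 was the higher in both groups for each of the 3 stalk genes, and none had groups that stood apart. Beside the peptidyl transferase centre, Mrpl2 had 85.9, 63.8, 65.8 and 53.2 CPM, with a log2 fold change of -0.33 (SE 0.19). Mrpl58, a peptidyl-tRNA hydrolase that rescues stalled ribosomes and is built into the large subunit, had 31.1, 24.4, 35.3 and 22.0 CPM. Both again had replicate 1 above replicate 2 in each genotype.

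Around the peptidyl transferase centre, Mrpl3 had 72.6, 57.5, 66.9 and 52.3 CPM and Mrpl4 had 57.7, 50.3, 52.3 and 47.4 CPM. At the tunnel exit, Mrpl45 had 50.1, 41.7, 42.9 and 38.3 CPM, and Mrpl44, which carries a ribonuclease III fold, had 51.9 and 35.4 CPM in WT, against 38.6 and 31.1 CPM in the Mut-labelled group (-0.33, SE 0.23). In the central protuberance, which contacts the transfer RNAs, Mrpl38 had 73.6, 59.96, 62.2 and 54.3 CPM, Mrpl40 had 35.8, 27.2, 33.8 and 25.7 CPM, and Mrpl46 had 27.4, 25.4, 28.4 and 23.0 CPM. In all of these genes replicate 1 exceeded replicate 2 in both groups and the groups overlapped. Mrpl37, a mitochondria-specific protein and the third most abundant member by CPM, had 85.9 and 74.9 CPM in WT, against 71.1 and 67.5 CPM in the Mut-labelled group. Its groups did not overlap (-0.21, SE 0.13, edgeR adjusted p = 0.554).

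Among genes named for the small subunit, 28 of 29 fold changes were negative (median -0.18). Both Mut-labelled libraries were below both WT libraries for 6 of these 29 genes, against 23.1% of all genes. Mrps6, a conserved protein of the small subunit platform, had 19.5 and 15.6 CPM in WT, against 13.1 and 12.3 CPM in the Mut-labelled group. Its groups did not overlap, and its adjusted p was the lowest of the 77 (log2 fold change -0.47, SE 0.23, edgeR adjusted p = 0.426). Part of its exons, 18.8%, is shared with Slc5a3 on the same strand. Mrps22, a mitochondria-specific protein, had 25.2 and 20.0 CPM in WT, against 19.5 and 15.3 CPM in the Mut-labelled group (-0.38, SE 0.23). Mrps25 had 41.8 and 35.7 CPM in WT, against 34.1 and 26.3 CPM in the Mut-labelled group (-0.36, SE 0.20). For these genes both Mut-labelled libraries were below both WT libraries, by less than the fit could separate from the spread within groups. Mrps12, which lines the decoding site, had 48.8, 40.2, 41.4 and 32.6 CPM, and its groups overlapped. Mrps7, on the head of the subunit, had 80.8, 58.0, 63.7 and 50.5 CPM, and Mrps5, by the mRNA entrance, 43.5, 37.8, 39.4 and 34.5 CPM. The mitochondria-specific Mrps27 had 29.2, 26.4, 26.6 and 19.8 CPM, and Mrps34 23.0, 17.3, 18.8 and 19.1 CPM, the latter without the replicate order in the Mut-labelled group. Mrps30 belongs to the large subunit despite its name, and had 64.1, 57.1, 60.9 and 51.8 CPM.

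In the total RNA libraries 70 of the 77 genes had enough counts to be tested, the exceptions being Mrpl22, Mrpl23, Mrpl27, Mrpl32, Mrpl53, Mrps33 and Mrps36. None of the 70 was called by edgeR, against 445 of 10546 genes (4.22%). DESeq2 called 0 members as well, against 203 of 10546 genes (1.925%). There were 51 negative and 19 positive fold changes, with a median of -0.19 against 0.00 over all genes. The Mut-labelled libraries were both below WT for 19 genes, against 21.4% of all genes, and both above for 9, against 22.5%. The fold changes spread more widely than in mRNA, from -1.27 to 0.70, and the median SE was 0.33, against 0.22 in mRNA. Without WT replicate 1 the median was -0.05, and without Mut-labelled replicate 2 it was -0.07. Without WT replicate 2 it was -0.22, and without Mut-labelled replicate 1 it was -0.27.

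In edgeR an unadjusted p under 0.05 was found for 3 of the 70 genes (4.29%), against 14.8% of all genes, and in DESeq2 for 1. The 3 genes in edgeR were Mrpl20, Mrps18b and Mrpl16. Mrpl20, a large subunit protein known in bacteria for early assembly, had 29.2 and 29.1 CPM in WT, against 14.0 and 11.7 CPM in Mut-labelled total RNA libraries (log2 fold change -1.18, SE 0.38, edgeR adjusted p = 0.103). In the mRNA libraries it had 37.2 and 26.9 against 40.1 and 26.2 CPM. Its groups stood apart in total RNA and overlapped in mRNA. Mrpl16, at the peptidyl transferase centre, had 36.0 and 41.2 CPM in WT, against 23.7 and 18.4 CPM in Mut-labelled total RNA libraries (-0.88). At the other end, Mrps35 had 22.4 and 18.1 CPM in WT, against 33.4 and 31.0 CPM in Mut-labelled total RNA libraries (0.66, SE 0.33, edgeR adjusted p = 0.369), against 33.3, 27.8, 30.9 and 23.0 CPM in mRNA. Mrpl42, Mrps2 and Mrps24, named for the size of their fold changes, also had groups that stood apart in total RNA and overlapped in mRNA. So did other members, such as Mrpl13, Mrpl34 and Mrps7. Mrpl42, a mitochondria-specific protein, had 17.5 and 18.1 CPM in WT, against 7.54 and 13.4 CPM in Mut-labelled total RNA libraries (-0.72, SE 0.46), and 28.9, 18.7, 25.4 and 15.3 CPM in mRNA. Mrps2 had 34.1 and 40.2 against 53.9 and 46.1 CPM in total RNA (0.42, SE 0.27), and 61.9, 50.7, 56.2 and 51.8 CPM in mRNA. Mrps24 had 29.2 and 37.1 against 39.9 and 40.2 CPM in total RNA (0.27, SE 0.29). All of these levels rest on few reads, such as 30, 29, 13 and 14 counts for Mrpl20 and 23, 18, 31 and 37 counts for Mrps35.

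The 3 Mrps18 genes are paralogs of 1 bacterial small subunit protein. Mrps18b and Mrps18c sit in the small subunit, whereas Mrps18a sits in the large one. In total RNA their fold changes differed in sign. Mrps18b had 16.6 and 18.1 CPM in WT, against 7.54 and 6.71 CPM in the Mut-labelled group (log2 fold change -1.27, SE 0.49, edgeR adjusted p = 0.196). Mrps18c had 9.74 and 7.03 CPM in WT, against 15.1 and 12.6 CPM in the Mut-labelled group (0.70, SE 0.50, edgeR adjusted p = 0.59). Mrps18a had 38.0 and 29.1 CPM in WT, against 19.4 and 27.7 CPM in the Mut-labelled group (-0.49, SE 0.33). The groups of all 3 paralogs stood apart in total RNA, and none was called. Over all genes, groups stood apart there for 21.4% with Mut-labelled lower and for 22.5% with Mut-labelled higher. In mRNA, Mrps18c had 25.4 and 20.0 CPM in WT, against 19.2 and 15.8 CPM in the Mut-labelled group (-0.38), so its groups stood apart in both kinds of library, in opposite directions. Mrps18b had 20.3, 14.5, 16.2 and 15.4 CPM in mRNA (-0.14), and Mrps18a 45.8, 32.3, 36.6 and 38.8 CPM (-0.05).

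An interaction term in a fit of the 8 libraries asked whether genotype differences were alike in mRNA and total RNA. By edgeR none of the 77 genes was called, and 0% of all 17416 genes were (unadjusted p under 0.05 for 4 members and for 687 genes). DESeq2 called 0 members and 18 genes. The 4 members were Mrpl20 (log2 difference of differences -1.20), Mrps18b (-1.10), Mrps18c (1.13) and Mrps35 (0.89), each with an edgeR adjusted p of 1. The divergent values of Mrpl20 and of the Mrps18 paralogs in total RNA were therefore not distinguished from their values in mRNA. The mRNA and total RNA libraries of a sample share the same sorted cells, so the values of both kinds are given side by side and no agreement between them is counted.

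**Figure D4:**
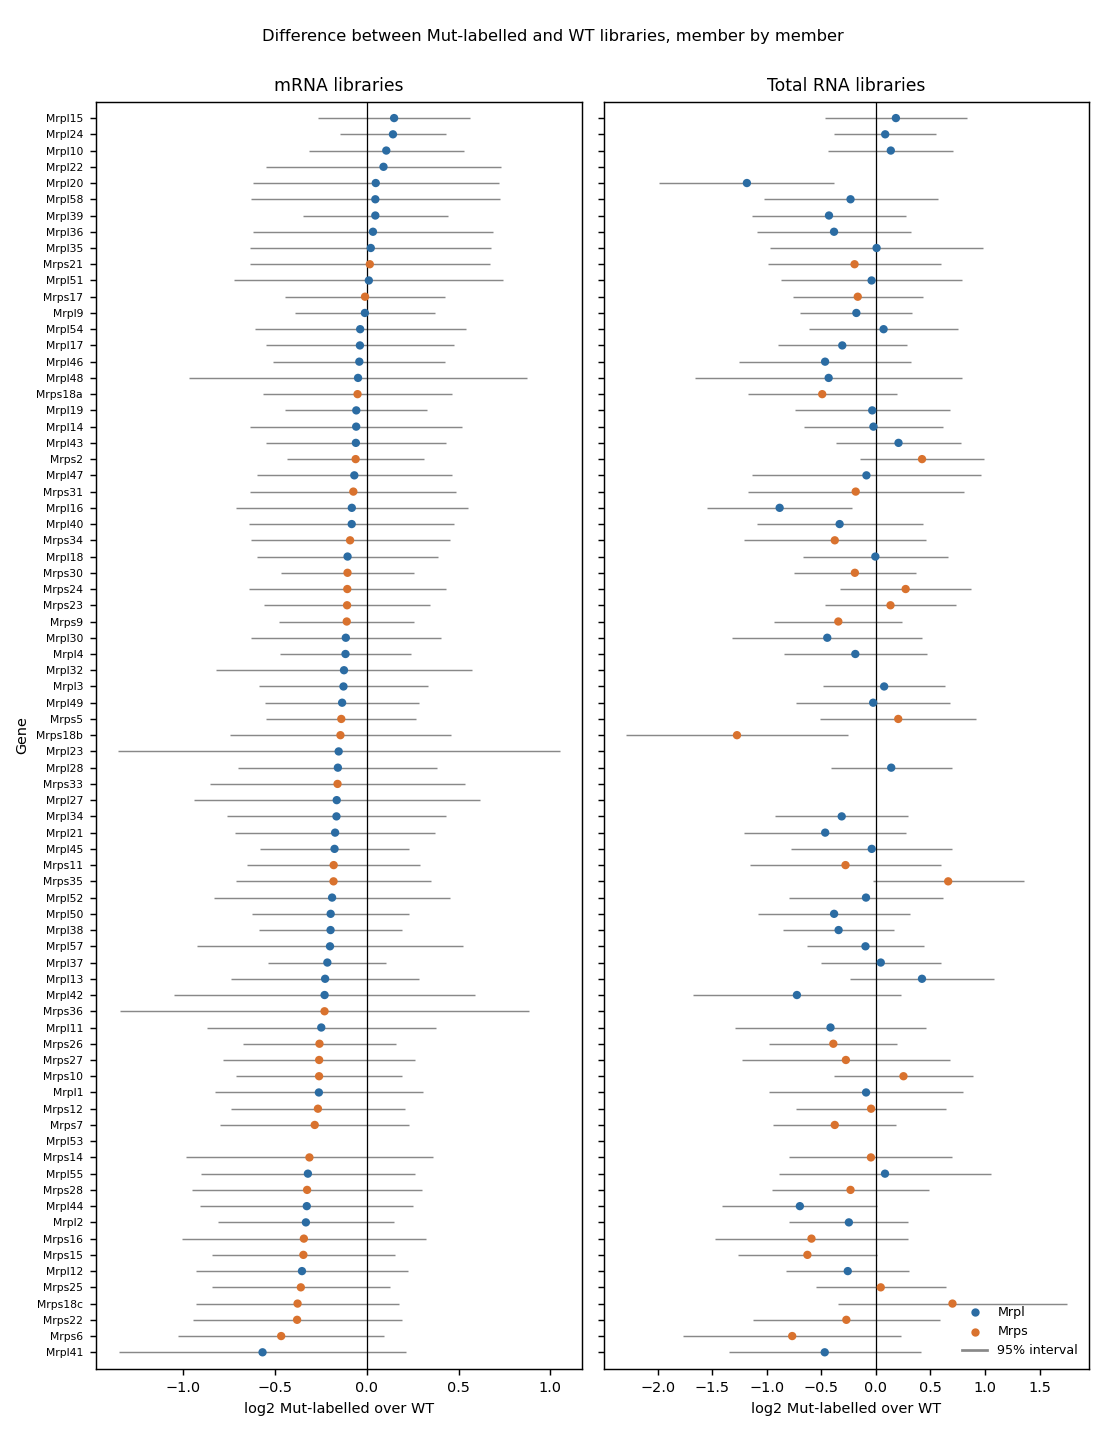
Log2 ratio of Mut-labelled over WT for each gene, with its 95% interval, in mRNA (left) and total RNA (right), in the order of the mRNA values; blue points are Mrpl and orange points Mrps genes. Mrpl53 is left out and genes not tested in total RNA have no point there. All mRNA intervals drawn cross 0, and in total RNA those of Mrpl16, Mrpl20 and Mrps18b do not, none with an adjusted p under 0.05.

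Against mRNA libraries, total RNA libraries also hold RNA without a polyA tail and unspliced RNA. Measured this way, 7 members were lower in total RNA by edgeR, against 7.65% of all genes called lower, and 0 were higher, against 7.49% called higher. All 7 are large subunit genes. The median log2 difference over the 77 genes was -0.32, with 66 negative, against -0.10 over all genes. The 2 kinds of library are by name from the same sorted samples, and a fit with the sample as a block called 26 members lower, all 7 among them and 7 Mrps genes as well, against 16.5% of all genes called lower in that fit. The block thus raised the share called over all genes too. With any 1 of the 4 samples left out, the members' median ranged from -0.43 to -0.23, against -0.17 to -0.14 over all genes. In these fits 1 genotype has a single sample, and the calls of the 7 members were not kept.

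Mrpl24, by the tunnel exit, had the clearest difference, with 95.7, 97.0, 104 and 109 CPM in mRNA (WT pair, then Mut-labelled pair), against 65.9, 64.6, 75.0 and 68.2 CPM in total RNA (log2 difference -0.57, SE 0.11, edgeR adjusted p = 0.00679). Every total RNA library was below every mRNA library. Mrpl45, which ties the ribosome to the inner membrane at the tunnel exit, had 36.2 to 47.2 CPM in mRNA and 19.5 to 30.9 CPM in total RNA (-0.69, SE 0.18, edgeR adjusted p = 0.0273). Mrpl13 had 39.9 to 61.3 against 22.6 to 38.1 CPM (-0.71, SE 0.18, edgeR adjusted p = 0.0234). On the other strand, exons of Mrpl13 overlap those of Mtbp over 27% of their length, and those of Mrpl10 overlap Gm11574 over 14.1%. As for Mrpl24 and Mrpl19, the counting of such reads is not given. For Mrpl24, Mrpl45 and Mrpl13, and for Mrpl10, Mrpl19 and Mrpl39, the kinds did not overlap. The same was true of members that were not called, such as Mrpl14, Mrpl22 and Mrps17. The share over all genes was not computed. The log2 difference was -0.60 for the mitochondria-specific Mrpl39, -0.55 for Mrpl19 and -0.53 for the stalk anchor Mrpl10. Mrpl18, a 5S-binding protein in bacteria, was called at -0.59 with an edgeR adjusted p of 0.0499 and its kinds overlapped. In contrast, Mrpl12 at the tip of the stalk had 38.9 to 69.8 CPM in mRNA and 41.6 to 72.8 CPM in total RNA, and Mrps25 had 24.8 to 39.4 against 32.9 to 44.1 CPM. The RNA components of the same ribosome went the other way. Of the mitochondrial ribosomal RNAs, mt-Rnr1 was higher in total RNA by 6.60 and mt-Rnr2 by 6.57 on the log2 scale.

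**Figure D5:**
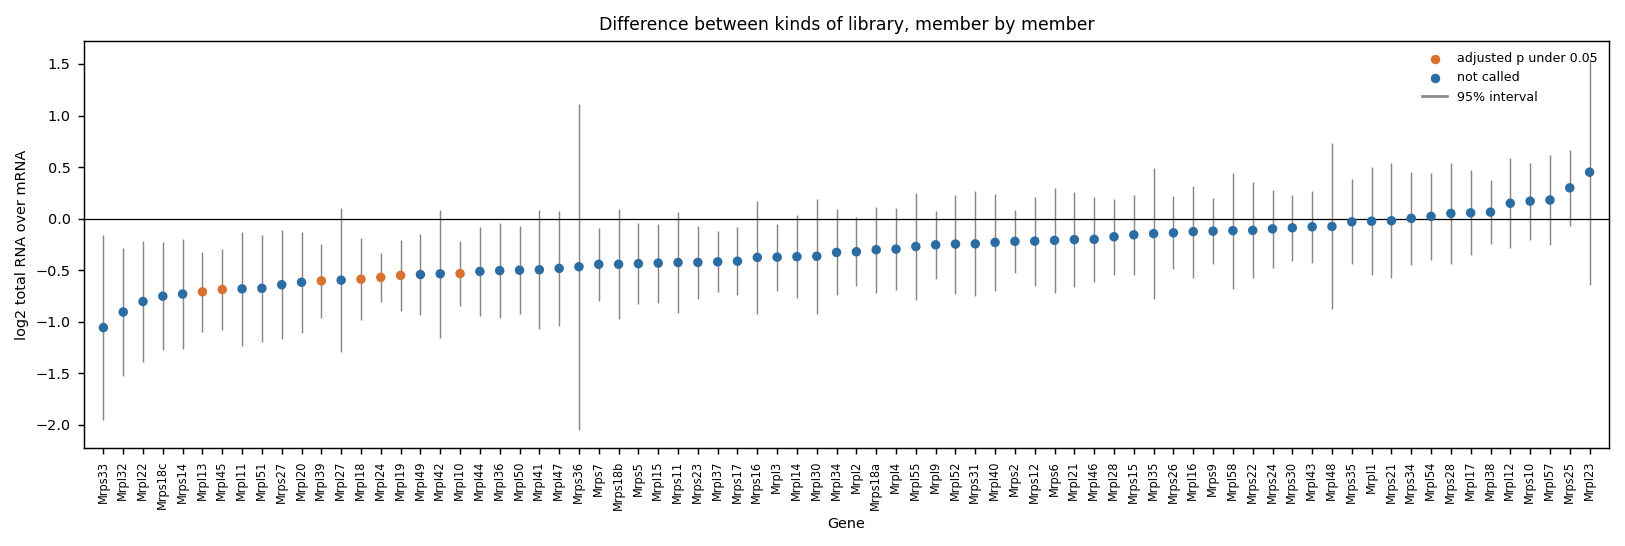
Log2 ratio of total RNA over mRNA libraries for each gene except Mrpl53, with its 95% interval, ordered by size; orange points have an adjusted p under 0.05. The 7 orange points lie between -0.71 and -0.53, and more negative values, such as that of Mrps33, have wider intervals.

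RefSeq promoters (GRCm38.p6, 250 bases before the annotated start) were found for 68 of the 77 genes, 74 promoters in all, and some of them are printed below as sequence context. They were rich in G and C (median 58.6%, against 52.4% over all 32851 promoters) and in CpG pairs (median 17 against 6). The letters CCGGAAG, the core bound by ETS family factors such as GABP, were found on either strand in 24.3% of the members' promoters and in 6.91% of all promoters. GCGCATGC, the core of the NRF1 motif, was in 9.46% against 2.26%, and AAGATGGC, bound by YY1, in 5.41% against 1.56%. TGTGGT, the core bound by RUNX factors, was in 9.46% of members' promoters and in 14.0% of all. The E-box CACGTG was in 9.46% against 6.02%, and CCAAT in 36.5% against 33.8%. These shares count promoters and not genes. The same E-box of Mrpl2 was counted in each of its overlapping promoters. TATAAA was in 6.76% against 12.4%. A match is a description of the letters, not of a bound site.

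The stretches below, 5′ to 3′ on the strand of the gene, are upstream of the annotated start, with these motifs in capitals. Mrpl22 (chr11:58171584-58171663, + strand) holds an ETS core followed by an NRF1 core. Mrpl32 (chr13:14613045-14613124, - strand) holds several NRF1 matches, the first pair being 1 stretch of letters matched on both strands. Mrpl39 (chr16:84735290-84735369, - strand), lower in total RNA than in mRNA, also holds 1 stretch matched on both strands. Mrpl20 (chr4:155802798-155802877, + strand) and Mrps18c (chr5:100798596-100798675, + strand), whose total RNA values leaned opposite ways, each hold an E-box, and Mrps18c an ETS core next to it. Mrpl52 (chr14:54426829-54426908, + strand), among the highest per kilobase, holds a RUNX core and an ETS core.
Mrpl22: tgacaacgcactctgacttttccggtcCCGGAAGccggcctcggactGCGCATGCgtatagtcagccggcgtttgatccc
Mrpl32: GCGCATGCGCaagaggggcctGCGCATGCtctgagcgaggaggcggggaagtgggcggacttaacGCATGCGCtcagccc
Mrpl39: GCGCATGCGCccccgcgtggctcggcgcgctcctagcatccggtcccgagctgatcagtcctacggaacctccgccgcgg
Mrpl20: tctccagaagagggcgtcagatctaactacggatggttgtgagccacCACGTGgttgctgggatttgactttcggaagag
Mrps18c: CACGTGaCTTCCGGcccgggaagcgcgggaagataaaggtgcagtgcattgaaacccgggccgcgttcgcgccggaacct
Mrpl52: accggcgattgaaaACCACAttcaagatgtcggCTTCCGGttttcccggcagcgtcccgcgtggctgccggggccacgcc

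Other genes that build and run the mitochondrial ribosome were not called for genotype in mRNA. Of 5 mitochondrial ribosomal proteins with other symbols, 0 were called in either kind. Dap3, a GTP-binding protein of the small subunit, had in mRNA 109 and 106 CPM in WT, against 111 and 106 CPM in the Mut-labelled group (log2 fold change 0.02, 95% interval -0.27 to 0.31). In mRNA, 0 of 24 assembly and rRNA modification factors, 0 of 15 mitochondrial translation factors, 0 of 20 mitochondrial aminoacyl-tRNA synthetases and 0 of 13 genes of mitochondrial DNA upkeep and transcription were called, with medians of -0.02, -0.13, -0.11 and -0.11. The mitochondrial ribosomal RNAs were not called either, with log2 fold changes of 0.21 (mt-Rnr1) and 0.14 (mt-Rnr2) in mRNA and 0.07 and 0.14 in total RNA, where the 95% intervals of both lay within 0.5. The synthetase gene with the most counts was Lars2, at 1760, 2564, 2018 and 2599 CPM in mRNA, with replicate 2 above replicate 1. The next, Iars2, had 127, 124, 85.2 and 97.7 CPM. Between kinds of library, edgeR called Lars2 higher in total RNA (log2 difference 3.42). There Lars2 had 20150, 22250, 24390 and 19880 CPM, near the 25410, 23580, 26500 and 24770 CPM of mt-Rnr1. Whether the reads counted on Lars2 come from synthetase mRNA was not tested. The synthetase genes Hars2 (-0.57) and Rars2 (-0.59), the translation factor Guf1 (-0.66), the small subunit protein Chchd1 (-0.84), the assembly factor Mettl17 (-0.74) and the mitochondrial exonuclease Mgme1 (-0.96) were called lower in total RNA.

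Of 9 nuclear regulators of mitochondrial genes, 0 were called in mRNA and 1 of the 8 tested in total RNA. This was Gabpb1, which encodes the beta subunit of the ETS factor GABP, with 60.4 and 48.2 CPM in WT, against 91.6 and 95.5 CPM in Mut-labelled total RNA libraries (log2 fold change 0.78, SE 0.22, edgeR adjusted p = 0.0491). The call was lost with RLE scaling (edgeR adjusted p = 0.0519), with gene-count totals (0.0744) and in DESeq2 (0.473). It was also lost without WT replicate 2 (edgeR adjusted p = 0.178), Mut-labelled replicate 1 (0.0867) or Mut-labelled replicate 2 (0.178), and with spike-in scaling the value was -0.34. In mRNA Gabpb1 had 94.6 and 92.3 CPM in WT, against 107 and 98.4 CPM in the Mut-labelled group (0.13, SE 0.12), and the interaction was not called (0.69, edgeR adjusted p = 1). Its DNA-binding partner Gabpa was at 83.8, 87.6, 95.5 and 89.2 CPM in mRNA, and Nrf1 at 73.3, 73.0, 78.9 and 77.5 CPM. Between kinds, Gabpa was called lower in total RNA (log2 difference -0.46) and the coactivator Ppargc1b higher (0.86).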

How the data were processed

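The deposited table holds raw counts, whole numbers per gene and library that the authors had not normalised. Per the submitters' processing notes, the build was mm9 and the tools TopHat, featureCounts and edgeR. Their versions, the annotation and strand use: not given in the sources used here. Symbols were matched by identifier to GENCODE M21 (32919 of 37991 identifiers), whose exon lengths, from another build, are approximate. The 92 ERCC and 3 rRNA entries were left out of library totals.

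All genes were fitted with edgeR 4.0.16 in R 4.3.3 (its filter on low counts, TMM scaling, two-sided quasi-likelihood test, Benjamini-Hochberg adjustment over all genes tested, calls at an adjusted p under 0.05). Standard errors are the absolute log2 difference over the square root of F. Genotypes were compared inside each kind of library. The interaction and the difference between kinds used all 8 libraries. Levels are CPM after TMM scaling, and those set between kinds come from the fit of all 8 libraries. Replicate differences use log2 CPM with a prior count of 2. Alternatives were RLE, total-count and ERCC scaling, no filter, DESeq2 1.42.0, a replicate block and leaving out each sample.

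Replicate numbers are not said to pair WT with Mut-labelled samples. Libraries of 1 name in both kinds were read as 1 sample, and their deviations correlated over 10509 genes (r = 0.37 in WT and 0.43 in the Mut-labelled group). Counts of replicates differed beyond sampling noise (chi-square per degree of freedom 2.60 to 65.1). Scripts were tested on simulated data. The members and lists were chosen with earlier results of these data known. Named genes are those called, the 5 highest and lowest fold changes per kind, the most and least abundant, and members chosen by role. Others were named after their values were seen.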

Additional observations from a re-analysis of the deposited data

How the results depend on the processing

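No member was called for genotype or interaction under RLE or total-count scaling, no filter, DESeq2 or any left-out sample. With the replicate block, 3 were called in mRNA (Mrpl12, Mrpl2 and Mrpl41, all lower in Mut-labelled, among 2870 of 17128 genes called), 1 in total RNA (Mrpl20, among 870 of 10546 genes) and 0 in the interaction. In mRNA 66 values stayed negative under the block, with a median of -0.14, and 15 had an unadjusted p under 0.05. Replicate numbers are shared labels here, with replicate differences of WT and Mut-labelled libraries correlating at r = 0.32 in mRNA and 0.22 in total RNA over genes. Spike-in scaling moved the median of all genes to -0.38 in mRNA and -1.10 in total RNA. The members' medians were then -0.53 and -1.27, that is -0.15 and -0.17 relative to all genes, and 2 members were called lower in total RNA (Mrpl20 and Mrps18b, among 373 of 10546 genes). Gabpb1 was then -0.34.

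With a sample left out the median ranged from -0.34 to 0.015 in mRNA (0.0023 without WT replicate 1), from -0.27 to -0.0511 in total RNA (-0.0744 without Mut-labelled replicate 2) and from -0.0855 to 0.12 in the interaction (-0.00085 without WT replicate 1). The interaction median of 0.016 was -0.033 with RLE, -0.0267 with total-count scaling, -0.022 with DESeq2 and -0.72 with spike-ins. Between kinds, 7 members called lower in total RNA became 3 with RLE, 28 with total-count scaling, 13 with no filter, 4 with DESeq2 and 26 with the block. None was called higher in these fits. The share of all genes called lower went from 7.65% to 4.31%, 19.3%, 7.20%, 6.40% and 16.5% in the same order. The cause was not tested. With a sample left out 1 genotype has a single sample, and the 7 calls between kinds were not kept. Signs changed for 29 of 77 mRNA values without WT replicate 1 and for 33 without Mut-labelled replicate 2. Reads on members in total RNA libraries, 2001 to 2418, limit what could be seen there.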
